A study of Mus musculus with 51 samples.

Results

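The 40 genes described here make and mark fat cells and handle fatty acids and triglycerides. They were listed by name, and all 40 were present among the 23315 gene names of the VitC femurs and the 25938 gene names of the Tet femurs. Of these, 18 mark the identity of fat cells (4 secreted hormones and factors, 5 genes of fatty acid, glycerol and glucose uptake, 5 genes of the lipid droplet, 2 transcription factors, 1 receptor and Car3), 11 make fatty acids or control that synthesis (8 enzymes and 3 regulators, called lipogenic below), and 11 assemble, carry or break down triglycerides (called turnover below). The list was drawn up knowing that it is high in 1 VitC+/- library, so that library's values are given as a description.

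The study asked how vitamin C (VitC) and the TET enzymes, which use VitC as a cofactor to oxidize 5-methylcytosine to 5-hydroxymethylcytosine (5hmC), shape gene expression in bone. RNA-seq of femurs gave 21 of its 51 samples, and peak lists of 5hmC and of the histone marks H3K27me3 and H3K9me3 cover part of the others. In the first experiment, femurs came from 20 week old mice, 3 libraries per group. WT mice were wild type C57BL/6 animals, which make their own VitC. VitC+ and VitC+/- mice both carried the Gulotm1Mae knockout allele on both chromosomes, so that they depended on VitC in the drinking water (3.3 g/L). VitC+ mice received it for all 20 weeks, and VitC+/- mice for 15 weeks followed by 5 weeks without it. In the second experiment, femurs came from 11 week old mice, again with 3 libraries per group. Ctrl mice carried Prrx1-Cre with intact Tet genes. With the same Cre, floxed alleles of Tet1 (Tet1 cKO), of Tet2 (Tet2 cKO) or of both (Tet1/2 cKO) made up the remaining groups. Prrx1-Cre acts in limb mesenchyme, from which bone and marrow stroma but not blood cells derive. The marrow had been flushed and the periosteum removed before RNA was taken. MC3T3-E1, a mouse calvarial pre-osteoblast line, was cultured with or without 50 µg/ml VitC and with 4 mM β-glycerophosphate. That culture lasted 28 days for 5hmC and, according to the methods, 7 days for the histone marks, where the labels give 28 days for all MC3T3-E1 samples.

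Bone marrow holds fat cells of its own. They arise from the same stromal progenitors as osteoblasts, under the control of Pparg and C/EBP factors, and store triglycerides in lipid droplets coated by perilipins. Fatty acids reach these droplets from the blood, released from lipoproteins by lipoprotein lipase, or are made in the cell from citrate through Acly, acetyl-CoA carboxylase and Fasn, and Scd1 then makes them monounsaturated. Lipogenic enzymes are found in many cells that grow or secrete, whereas hormones such as adiponectin, adipsin and resistin are close to particular to fat cells, although adiponectin is also made by marrow stromal cells.

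Promoters are shown for some of the members that stood far above all other libraries in 1 VitC+/- library (Adig, Plin4, Pnpla2 and Pcx), beside those of Fasn and Insig1, which are lipogenic genes without such a difference. Of 14 members at least 4 times the next library there, 11 have an entry. A motif match was found in 7 of these, from which the 4 shown were picked, and none in the entries of Cfd, Pck1, Plin1 and Retn. Each run holds the 250 bases before a transcription start in RefSeq (GRCm38.p6), 5′ to 3′ on the strand of the gene. Capitals mark matches on either strand to any of 6 short motifs, which are the nuclear receptor half-site AGGTCA, the C/EBP core TTGCAA, the sterol response core TCACNCC, the E-box CACGTG, the NF-Y box CCAAT and the TATA box TATAAA. In Fasn and in Insig1, 2 letters belong to more than 1 match.
Adig (chr2:158502362-158502611, plus strand): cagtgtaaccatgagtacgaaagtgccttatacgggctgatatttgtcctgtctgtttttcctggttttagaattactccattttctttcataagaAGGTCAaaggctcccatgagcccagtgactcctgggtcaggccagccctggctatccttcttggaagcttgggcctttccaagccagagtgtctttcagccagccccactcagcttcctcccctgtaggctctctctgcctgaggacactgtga
Plin4 (chr17:56109783-56110032, minus strand): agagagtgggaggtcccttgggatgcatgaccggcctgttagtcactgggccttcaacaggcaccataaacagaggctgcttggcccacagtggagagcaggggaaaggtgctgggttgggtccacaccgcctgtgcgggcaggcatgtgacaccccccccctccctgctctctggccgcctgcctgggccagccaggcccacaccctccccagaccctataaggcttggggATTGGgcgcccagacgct
Pnpla2 (chr7:141454938-141455187, plus strand): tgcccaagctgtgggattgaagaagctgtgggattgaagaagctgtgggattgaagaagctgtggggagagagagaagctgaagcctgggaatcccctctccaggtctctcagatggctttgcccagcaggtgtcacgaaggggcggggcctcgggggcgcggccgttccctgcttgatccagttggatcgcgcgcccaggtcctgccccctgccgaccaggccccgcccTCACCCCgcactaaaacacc
Pcx (chr19:4510222-4510471, plus strand): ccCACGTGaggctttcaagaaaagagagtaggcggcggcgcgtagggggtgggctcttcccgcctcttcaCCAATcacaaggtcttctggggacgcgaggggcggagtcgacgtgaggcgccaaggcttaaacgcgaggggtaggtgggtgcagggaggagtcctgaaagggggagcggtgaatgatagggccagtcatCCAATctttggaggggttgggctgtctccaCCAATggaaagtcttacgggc
Fasn (chr11:120824548-120824797, minus strand): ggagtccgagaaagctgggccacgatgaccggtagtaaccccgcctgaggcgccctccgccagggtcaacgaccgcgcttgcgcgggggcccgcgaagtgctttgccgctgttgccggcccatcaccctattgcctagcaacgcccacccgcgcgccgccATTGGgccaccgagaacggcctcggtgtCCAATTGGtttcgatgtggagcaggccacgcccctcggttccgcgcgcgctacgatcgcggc
Insig1 (chr5:28071162-28071411, plus strand): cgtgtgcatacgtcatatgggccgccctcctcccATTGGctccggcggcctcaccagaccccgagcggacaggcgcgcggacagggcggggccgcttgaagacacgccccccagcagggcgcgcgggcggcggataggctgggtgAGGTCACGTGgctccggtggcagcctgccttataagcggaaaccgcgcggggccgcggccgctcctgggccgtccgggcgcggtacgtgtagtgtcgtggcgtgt
Pcx has a further RefSeq start in the same table, and the start shown is the upstream one. A promoter entry was found for 31 of the 40 members, and none for Scd1, Fabp4, Lpl, Adrb3, Car3, Slc2a4, Dgat1, Dgat2 and Gpd1. Counted over the 250 bases before a start, with a match in any promoter of a gene, AGGTCA occurred in 5 of the 13 identity members with an entry, 3 of the 10 lipogenic members and 0 of the 8 turnover members, against 15.8% of all 27025 genes. CCAAT occurred in 5, 7 and 2 members in this order, against 37.5% of all genes, and TCACNCC in 3, 0 and 3, against 15.1%. TTGCAA occurred in 2, 0 and 0 members (6.09% of all genes), CACGTG in 0, 2 and 2 (6.86%), and TATAAA in 2, 1 and 1 (14.3%). A match describes these letters only, and it is not evidence that a factor binds there.

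Libraries of the VitC femurs held 30.7 to 46.6 M reads (M, 1e6) by the spacing of their low values, except WT replicate 1 with 7.47 M, so low values of that library are the least precise. Libraries of the Tet femurs held 28.6 to 49.8 M reads. The targeted genes do not check the labels. Gulo, a gene of liver, was at or below 0.522 RPKM in all 9 femur libraries, and in the libraries labelled Tet1 cKO, Tet1 was at 630, 532 and 773 normalized counts against 374, 420 and 435 in Ctrl. Tet2 was at 2245, 2209.7 and 1834 normalized counts in the libraries labelled Tet2 cKO against 2236, 2512 and 2251 in Ctrl. Counts over a whole gene do not show the loss of a single exon. Of the markers of the labelled tissue, all 18 osteoblast markers were detected, and their summed scaled RPKM ranged from 1430 to 4660 in WT, from 7169.7 to 12498.5 in VitC+ and from 3022 to 8720.2 in VitC+/-.

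VitC+/- replicate 2 stood apart from the other 8 libraries of its experiment. It was the highest library for 29 of the 40 members, and for 27 of the 35 members that could be tested, whereas it was the highest for 12.8% of all genes tested. With 0.5 added to each value, 11 of the 35 members were at least 4 times higher in it than in every other library (7 identity, 2 lipogenic and 2 turnover genes), where 0.143% of all genes were (18 of 12586). No member reached this in any of the other 8 libraries. The list was drawn up with the values of this library known, so these counts and the ratios that follow describe it and test nothing. They include Plin1, Plin4, Cidec, Retn, Adig and Acacb, which reached the level for testing through VitC+/-. This favours high values in that group. All of these but Acacb are identity genes, so the ratio of the identity class is favoured most. Over the 15 tested identity genes, the median log2 ratio of this library to the median of the other 8 was 2.50, while each of the other libraries compared in the same way gave -1.08 to 0.74. The 11 lipogenic genes gave 0.91 in this library and -0.46 to 0.25 in the others, and the 9 tested turnover genes 1.50 and -0.44 to 0.27. All identity genes together took 0.895% of the summed scaled RPKM in this library and 0.0595 to 0.190% in the other 8. In lipogenic genes the share was 0.258% against 0.0145 to 0.0416%, and in turnover genes 0.422% against 0.0826 to 0.183%. RNA of all cells left in the flushed femurs was measured together. A difference in the cells present, such as more fat cells, and more RNA of these genes per cell therefore cannot be told apart.

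**Figure D1:**
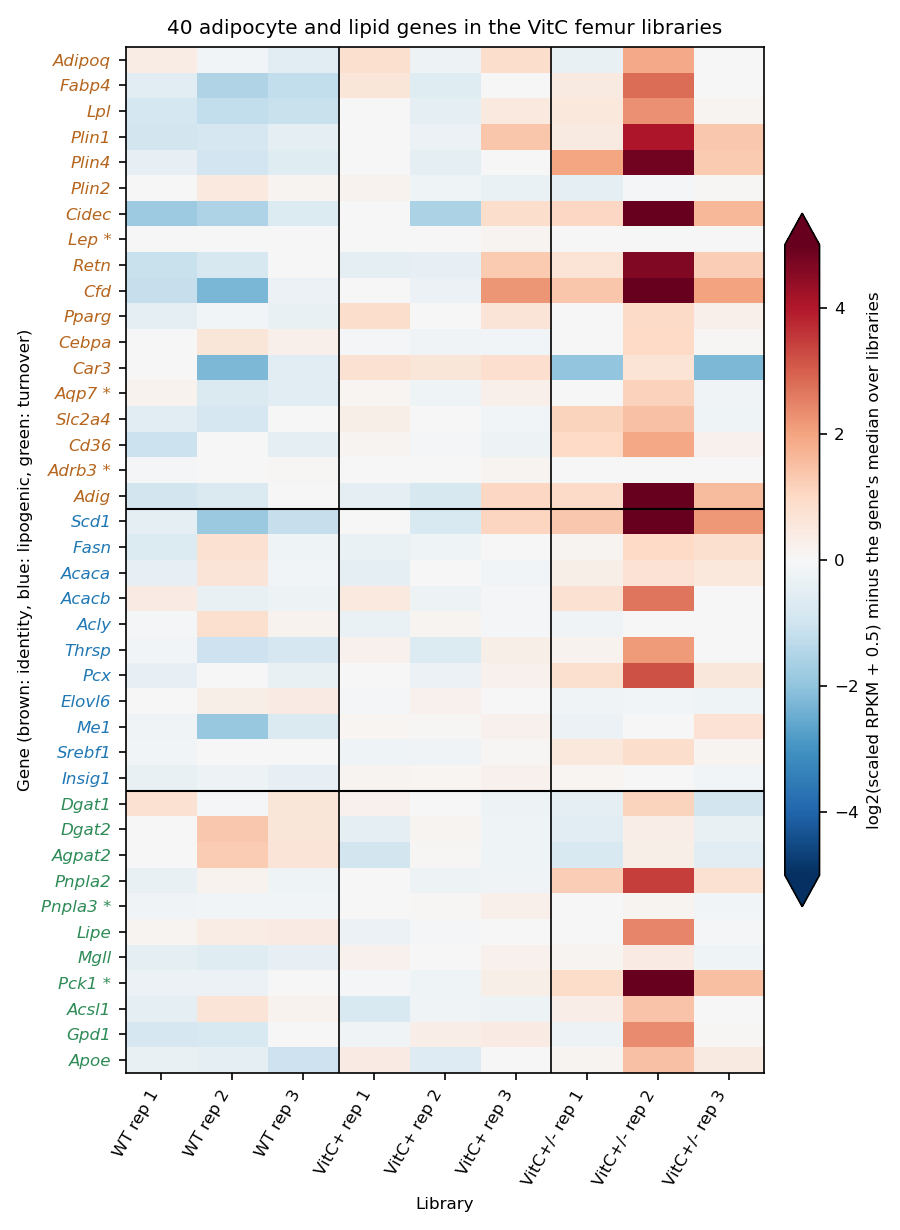
Each row is 1 of the 40 members, grouped as identity, lipogenic and turnover genes, and each column is 1 of the 9 VitC femur libraries. Colour gives log2(scaled RPKM + 0.5) minus the gene's median over the libraries, and an asterisk marks the 5 members that were too low to test. The column of VitC+/- replicate 2 is the highest for 29 of the 40 rows.

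Levels below are RPKM (reads per kilobase of transcript and per 1e6 reads) divided by 1 scaling factor per library, with replicates 1, 2 and 3 in this order. Among the secreted factors, Adipoq, the hormone adiponectin, was at 28.9, 20.2 and 14.8 in WT, 39.15, 18.4 and 41.2 in VitC+ and 16.85, 83.4 and 22.2 in VitC+/-. The highest was VitC+/- replicate 2, but the other VitC+/- libraries lay within the range of WT, and the groups overlapped. Cfd (chr10:79890853-79892655, GRCm38), the complement factor adipsin, was at 4.41, 1.70 and 8.38 in WT, 10.3, 8.215 and 49.2 in VitC+ and 28.1, 637 and 43.1 in VitC+/-. All VitC+/- values were above all WT values, whereas VitC+ replicate 3 was above both of the lower VitC+/- libraries. Retn, the hormone resistin, was at 0, 0.120 and 0.567 in WT, 0.2705, 0.296 and 2.113 in VitC+ and 1.22, 25.6 and 1.97 in VitC+/-. VitC+/- replicate 2 was 12.1 times the next library, VitC+ replicate 3, and the remaining VitC+/- libraries lay within VitC+ and above WT. Lep, the satiety hormone leptin, was listed at 0 in all libraries but VitC+ replicate 3, which had 0.0498, so it gave no comparison.

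Of the genes of uptake, Fabp4 (chr3:10204342-10208616), which binds fatty acids inside fat cells and capillary endothelium, was at 150.3, 79.1 and 96.2 in WT, 342, 149 and 224 in VitC+ and 305, 1564 and 229 in VitC+/-. The VitC+/- libraries were above all WT libraries, and those other than replicate 2 lay within the range of VitC+. Lpl, the lipase that frees fatty acids from lipoproteins, was at 8.85, 6.85 and 7.50 in WT, 16.65, 12.2 and 23.6 in VitC+ and 24.4, 83.8 and 18.6 in VitC+/-. Every VitC+/- library was above every WT library, and the range of VitC+ overlapped with VitC+/- through its replicate 3. Cd36, a fatty acid transporter also found on macrophages and endothelium, was at 3.49, 7.84 and 5.49 in WT, 8.64, 7.30 and 6.495 in VitC+ and 16.15, 31.8 and 9.24 in VitC+/-. For this gene all 3 VitC+/- libraries were above all 6 others. Slc2a4, the insulin-regulated glucose transporter of fat and muscle, was at 1.78, 1.38 and 2.87 in WT, 3.68, 2.93 and 2.58 in VitC+ and 6.75, 8.87 and 2.385 in VitC+/-. Its VitC+/- replicate 3 was below WT replicate 3, so that the groups overlapped. Aqp7, a glycerol channel, did not reach the level for testing and lay between 0.122 and 0.731 in 8 libraries, with 1.80 in VitC+/- replicate 2.

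Among the genes of the lipid droplet, Plin1, the perilipin of fat cells, was at 0, 0.0269 and 0.177 in WT, 0.444, 0.278 and 1.94 in VitC+ and 0.788, 15.1 and 1.92 in VitC+/-. VitC+/- replicate 2 was 7.80 times the next library, and the remaining VitC+/- libraries overlapped with VitC+ but not with WT. Plin4 (chr17:56100587-56109948), which coats small new droplets and is also found in muscle, was at 0.660, 0.300 and 0.516 in WT, 1.08, 0.6125 and 1.05 in VitC+ and 5.555, 43.6 and 3.305 in VitC+/-. All 3 VitC+/- libraries were above all 6 others, with no overlap. Cidec (chr6:113424634-113435760), which fuses droplets into the single large one of white fat cells, was at 0, 0.106 and 0.597 in WT, 1.25, 0.0894 and 2.70 in VitC+ and 3.04, 79.9 and 5.05 in VitC+/-. Its VitC+/- values were again all above the rest, with replicate 2 at 15.8 times the next library. Adig, a small adipogenic protein found at droplets, was at 0, 0.0815 and 0.453 in WT, 0.183, 0.0401 and 1.48 in VitC+ and 1.33, 35.7 and 2.39 in VitC+/-, and VitC+/- replicate 2 was 14.9 times the next library. VitC+/- and WT did not overlap in Adig, but VitC+ replicate 3 was above VitC+/- replicate 1. Plin2, the perilipin that most cell types make, went another way. It lay between 25.7 to 51.2 in the 9 libraries, was highest in WT replicate 2, and was at 34.9 in VitC+/- replicate 2.

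The transcription factors had a smaller range over the libraries than Plin1, Plin4 and Cidec. Pparg, the nuclear receptor that drives fat cell formation, was at 2.599, 3.32 and 2.74 in WT, 7.21, 3.73 and 6.04 in VitC+ and 3.68, 7.69 and 4.60 in VitC+/-. All VitC+/- and all VitC+ libraries were above all WT libraries, and VitC+ and VitC+/- overlapped. Cebpa, its partner and also a factor of granulocyte precursors, lay between 20.5 to 47.1 and was 1.32 times higher in VitC+/- replicate 2 than in the next library, WT replicate 2. Adrb3, the β3-adrenergic receptor of fat cells, was close to 0 in all libraries, at 0, 0.00921 and 0.0373 in WT, 0.02765, 0.01815 and 0.0798 in VitC+ and 0.0200, 0.0218 and 0.0216 in VitC+/-. Car3, a carbonic anhydrase abundant in fat cells and muscle, was at 122, 25.2 and 81.6 in WT, 206, 185.5 and 219 in VitC+ and 30.9, 194 and 25.5 in VitC+/-. In VitC+/-, replicate 2 was inside the VitC+ range and the other libraries were far below it, so that this gene split the VitC+/- group in the same way as the hormones but from a low level.

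**Figure D2:**
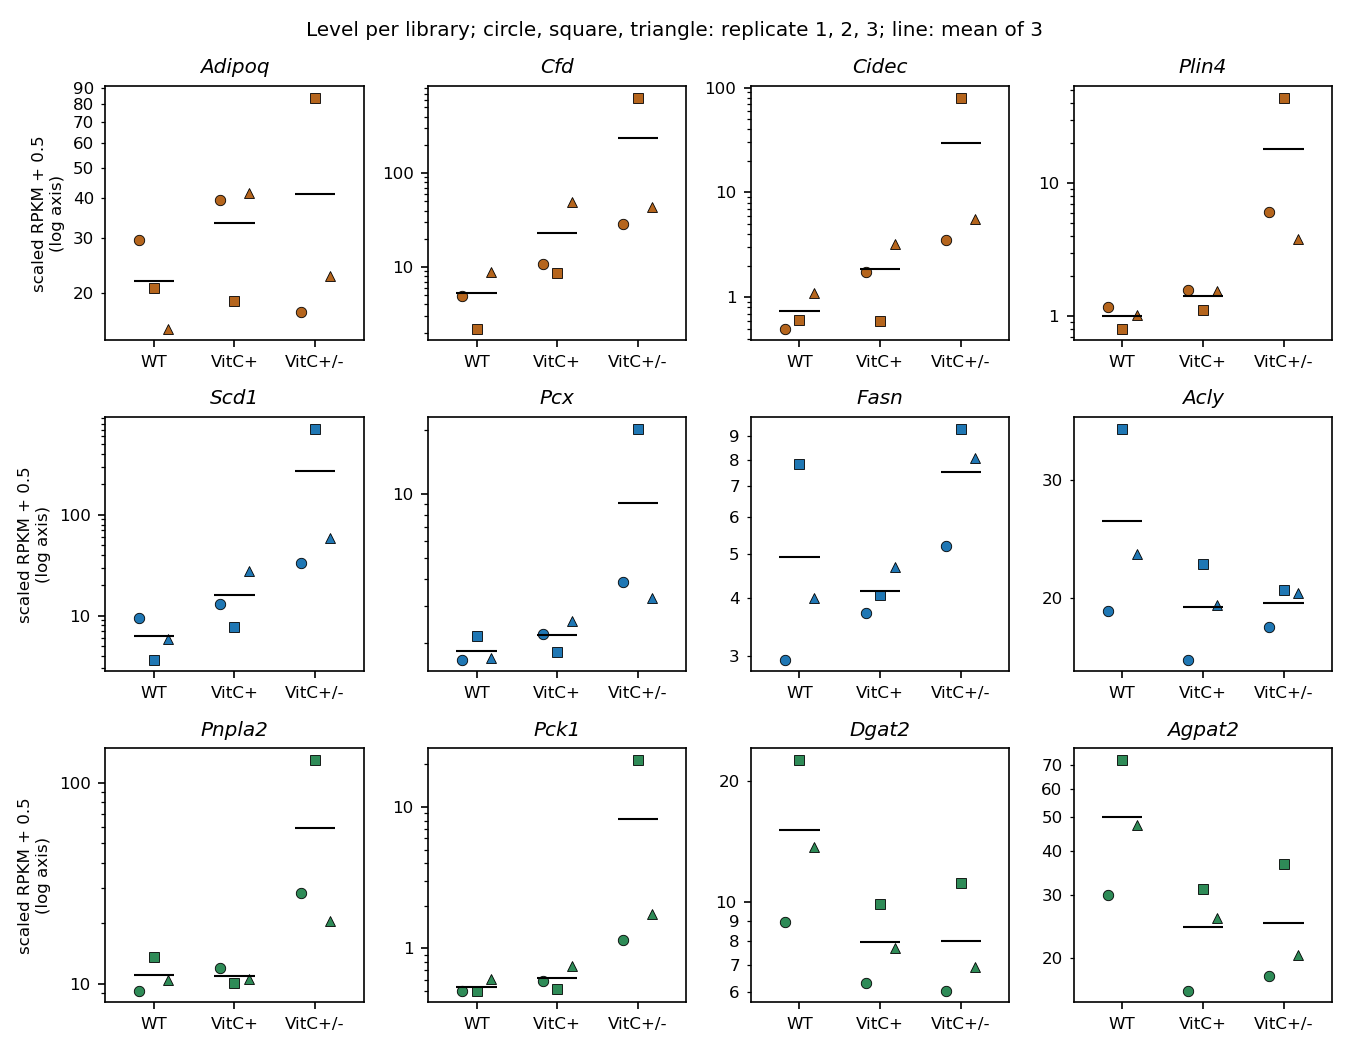
Scaled RPKM (with 0.5 added, log axis) of 12 members in each of the 3 libraries of WT, VitC+ and VitC+/-, where each point is a library and the line is the mean of 3. VitC+/- replicate 2 is at 637 for Cfd, 79.9 for Cidec and 715 for Scd1, far above the other points, whereas Fasn and Acly show no such gap.

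Lipogenic enzymes differed among themselves in VitC+/- replicate 2. Scd1 (chr19:44394450-44407709), which makes oleate from stearate, was at 8.98, 3.15 and 5.35 in WT, 12.65, 7.29 and 27.1 in VitC+ and 32.8, 715 and 58.2 in VitC+/-. All VitC+/- libraries were above the rest, and replicate 2 was 12.3 times the next. Pcx, the mitochondrial carboxylase that replenishes oxaloacetate, was at 1.175, 1.66 and 1.21 in WT, 1.70, 1.32 and 2.05 in VitC+ and 3.37, 19.7 and 2.76 in VitC+/-. It too had all VitC+/- libraries above the rest, and replicate 2 was 5.86 times the next library. Acacb, the acetyl-CoA carboxylase that limits fatty acid oxidation in muscle and fat, was at 1.055, 0.3915 and 0.485 in WT, 1.125, 0.481 and 0.624 in VitC+ and 1.49, 6.88 and 0.665 in VitC+/-, and it was high in replicate 2 only. The enzymes that build palmitate showed no such gap. Fasn (chr11:120805958-120825166), fatty acid synthase, was at 2.44, 7.33 and 3.50 in WT, 3.22, 3.57 and 4.18 in VitC+ and 4.69, 8.85 and 7.56 in VitC+/-. Its VitC+/- replicate 2 was 1.17 times the next library, and VitC+/- overlapped with WT. Acly lay between 15.7 to 35.3 with its highest value in WT replicate 2, and Acaca between 2.12 to 5.56 with 1.07 times the next library in VitC+/- replicate 2. Elovl6, which elongates palmitate, lay between 1.24 to 2.15, and Me1, which supplies NADPH, between 0.655 to 6.57, and neither was highest in that library.

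Of the regulators of fatty acid synthesis, Thrsp, a nuclear factor of lipogenic tissues, was at 3.66, 1.76 and 2.08 in WT, 4.77, 2.39 and 5.20 in VitC+ and 4.685, 19.6 and 4.095 in VitC+/-. Again VitC+/- replicate 2 was high, 3.77 times the next library, and the other VitC+/- libraries lay within VitC+. Srebf1, the factor that activates lipogenic enzymes, was at 10.4, 11.6 and 11.3 in WT, 10.0, 10.35 and 12.3 in VitC+ and 17.0, 22.0 and 12.9 in VitC+/-. All VitC+/- libraries were above the rest, by a small step. Insig1, which holds SREBP proteins in the endoplasmic reticulum, was at 10.1, 10.95 and 9.76 in WT, 14.5, 14.0 and 15.4 in VitC+ and 14.05, 13.2 and 11.9 in VitC+/-, and its lowest values were those of WT.

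Genes of triglyceride turnover are given by function and not by their levels, first those that release fatty acids and then those that assemble or carry triglycerides. Pnpla2 (chr7:141455188-141460743), the lipase that starts triglyceride breakdown, was at 8.74, 13.1 and 9.915 in WT, 11.5, 9.61 and 10.1 in VitC+ and 27.7, 129.8 and 20.0 in VitC+/-. Its VitC+/- libraries were all above the other 6, which stayed between 8.74 and 13.1. Lipe, the hormone-sensitive lipase that acts next, was at 5.69, 6.78 and 6.84 in WT, 4.08, 4.69 and 4.99 in VitC+ and 5.07, 29.5 and 4.76 in VitC+/-. Only replicate 2 was high, and the other VitC+/- libraries lay below all WT libraries. Mgll, which cleaves the last fatty acid, was at 8.03, 7.03 and 8.30 in WT, 13.1, 11.1 and 13.05 in VitC+ and 12.1, 14.8 and 9.40 in VitC+/-, and here WT was below both other groups. Pnpla3, a related lipase, was below the level for testing, at 0.117 to 0.3315.

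On the side of assembly, Pck1, which supplies glycerol 3-phosphate through glyceroneogenesis in fat cells, was at 0, 0 and 0.1095 in WT, 0.0886, 0.0194 and 0.248 in VitC+ and 0.652, 21.15 and 1.25 in VitC+/-. VitC+/- replicate 2 was 16.9 times the next library, the largest such ratio among the 40 members, but the gene reached 1 RPKM in too few libraries to be tested. Gpd1, which makes glycerol 3-phosphate from glycolysis, was at 1.07, 1.19 and 2.34 in WT, 2.01, 3.05 and 3.29 in VitC+ and 1.87, 14.1 and 2.48 in VitC+/-, so that VitC+/- replicate 2 alone was high. Dgat1, which closes triglyceride synthesis and also acts in many other tissues, was at 98.9, 56.55 and 88.5 in WT, 67.1, 58.2 and 49.15 in VitC+ and 42.55, 126 and 30.4 in VitC+/-. The 2 remaining VitC+/- libraries were below all others, while replicate 2 was the highest of all. Its counterpart Dgat2 was at 8.44, 22.0 and 13.2 in WT, 5.82, 9.41 and 7.21 in VitC+ and 5.54, 10.6 and 6.42 in VitC+/-, and Agpat2, which adds the second fatty acid, was at 29.7, 72.0 and 47.0 in WT, 15.65, 30.9 and 25.4 in VitC+ and 17.3, 36.3 and 19.95 in VitC+/-. In both, the highest library was WT replicate 2, and VitC+/- without replicate 2 lay below all WT libraries. Acsl1, which activates fatty acids, lay between 10.9 to 52.2 with the highest value in VitC+/- replicate 2. Apoe, the lipoprotein component made by macrophages and stromal cells as well, was at 260.0, 238 and 164 in WT, 449, 211 and 334 in VitC+ and 370.1, 930.3 and 461.5 in VitC+/-, with all VitC+/- libraries above all WT libraries.

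The filter bears on how these values can be tested. Of the 35 members tested (RPKM of at least 1 in 3 of 9 libraries), 29 reached that level in at least 3 of the 6 WT and VitC+ libraries. The other 6 (Plin1, Plin4, Cidec, Retn, Acacb and Adig) passed through VitC+/-, and Plin1 and Acacb do not pass without its replicate 2. Lep, Adrb3, Pnpla3, Aqp7 and Pck1 did not pass. Tests were made with limma on log2(scaled RPKM + 0.5) over all genes that passed, so fold changes of low genes are understated, and adjusted p-values are those of Benjamini and Hochberg over 12586 genes. The 6 that passed through VitC+/- had to differ from the other groups, so their differences are given as a description, with no test, and the counts and medians below are over the 29 others (10 identity, 10 lipogenic and 9 turnover genes). Both comparisons of VitC+/- share the same 3 VitC+/- libraries, so their results are not independent of each other. The values of VitC+/- replicate 2 were known when the list was drawn up. Counts, medians, single differences and p-values that include this library are therefore likewise a description. Counts without it follow those with it.

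Against VitC+, the comparison that isolates 5 weeks without VitC among Gulo knockout mice, 1 of the 29 members was higher in VitC+/- and 0 were lower, where 5.93% of all genes were higher and 7.52% lower. This was the lipase Pnpla2, whose groups did not overlap, with log2 difference 1.96 (SE 0.56, n = 3 per group), adjusted p = 0.0481 in limma. It was lost when any 1 of the VitC+ libraries was left out (limma adjusted p 0.107 to 0.131) or without VitC+/- replicate 1 (0.0808), and it passed without VitC+/- replicate 2 or 3. Without VitC+/- replicate 3, 4 of the 29 members passed, all higher, which were Pnpla2, Slc2a4, Cd36 and Srebf1. At an unadjusted limma p under 0.05 stood 8 members with higher levels in VitC+/- and 1, Car3, with a lower level, beside 15.8% and 15.5% of all genes. The larger difference of Scd1 (2.98, SE 0.99, limma adjusted p = 0.0744) did not pass, given the spread within VitC+/-. Srebf1 had a small difference of 0.62 (SE 0.19, limma adjusted p = 0.0577). The median log2 difference was 0.60 over the identity genes, 0.67 over the lipogenic genes and 0.54 over the turnover genes, against 0.02 over all genes. In this order 7, 8 and 6 members had a higher mean log2 level in VitC+/- and 3, 2 and 3 a lower one. Among the members that passed the filter through VitC+/-, the log2 difference was 2.85 for Plin4 and 2.97 for Cidec.

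Without VitC+/- replicate 2, 1 of the 29 members was higher and 1 lower. Pnpla2 was higher than in VitC+ by 1.15 (SE 0.21, adjusted p = 0.0173) in limma. Car3 was lower, with a limma log2 difference of -2.83 (SE 0.54, adjusted p = 0.0181), at 25.5 and 30.9 in VitC+/- against 185.5 to 219 in VitC+. The library left out, at 194 for Car3, was chosen with its values known, so this call of Car3 is a description. Of 12454 genes, 4.18% were then higher and 6.24% lower. The median log2 difference fell to 0.19 over identity genes, 0.29 over lipogenic genes and -0.20 over turnover genes, with 18 members of higher and 11 of lower mean log2 level in VitC+/-. In Pnpla2 both remaining VitC+/- libraries were above all VitC+ libraries, and in Car3 both were below.

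**Figure D3:**
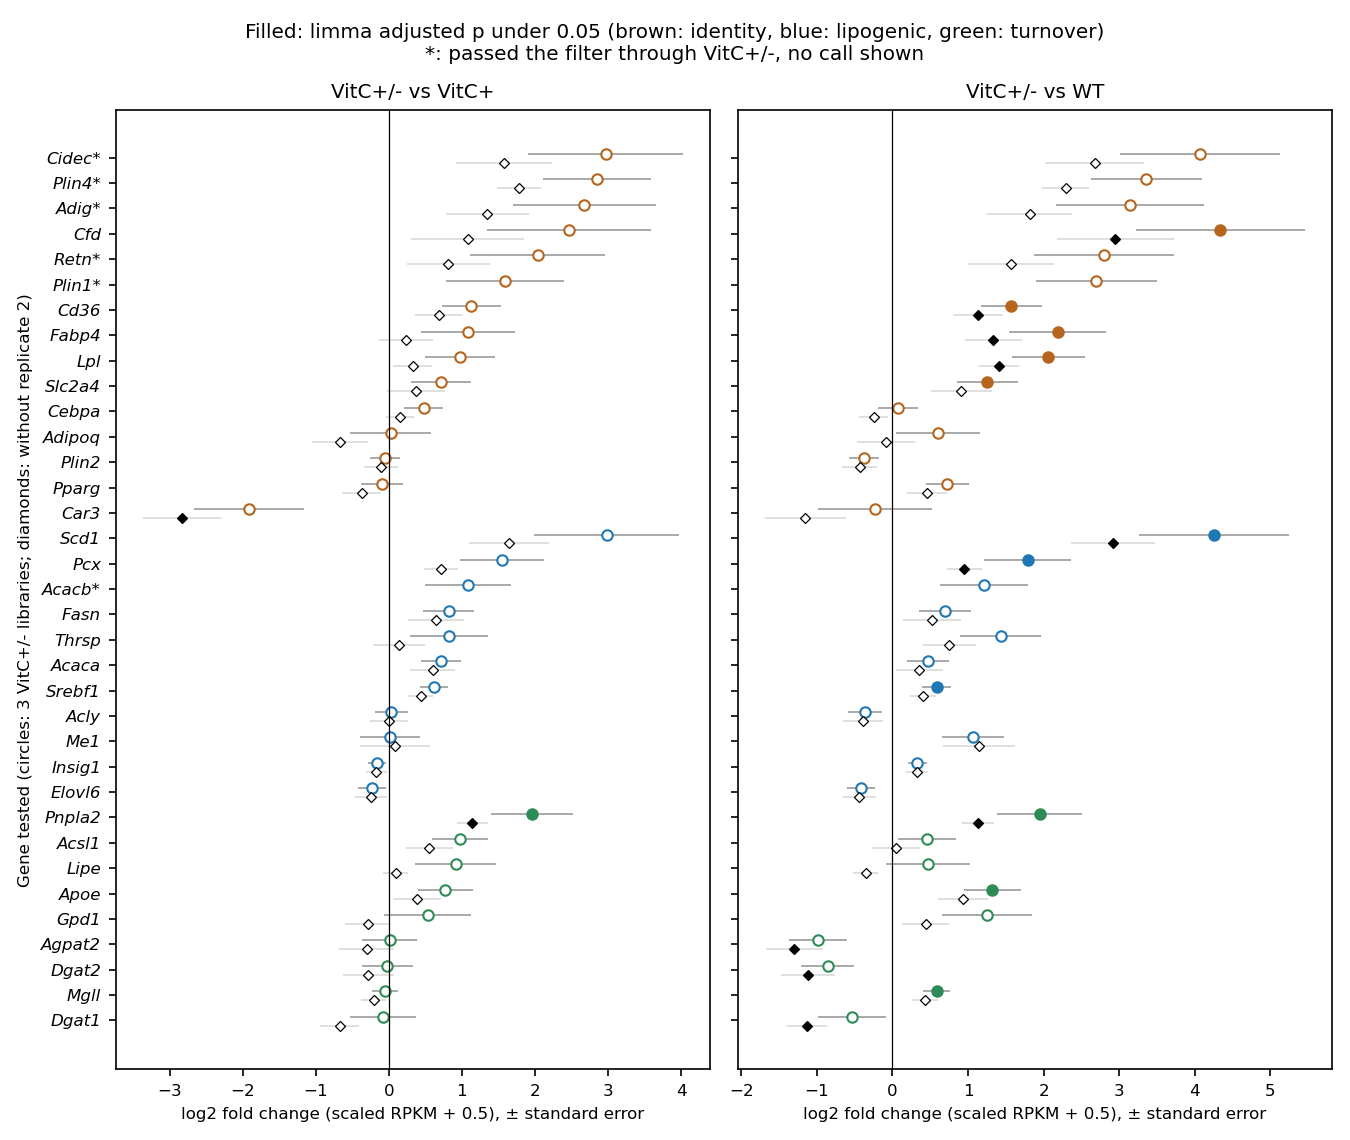
Log2 difference with its standard error (limma) of VitC+/- against VitC+ and against WT for the tested members. Circles use all 3 VitC+/- libraries, diamonds leave out replicate 2, and filled symbols have an adjusted p under 0.05, except that the 6 members with an asterisk, which passed the filter through VitC+/-, are drawn open with no call. Plin1 and Acacb have no diamond because they fail the filter without that library, and most circles lie to the right of their diamonds.

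Against WT, 11 of the 29 members were higher in VitC+/- and 0 lower, where 15.3% of all genes were higher and 15.9% lower. These were 5 identity, 3 lipogenic and 3 turnover genes. Groups did not overlap in 10 of them, which the call itself favours, and they overlapped in Slc2a4. Over all genes tested, called or not, 21.4% had VitC+/- above WT with no overlap. That share is therefore not comparable with the count among called members. Among the identity genes, Cfd gave log2 difference 4.34 (SE 1.12, n = 3 per group), adjusted p = 0.0178 in limma. Lpl gave log2 difference 2.06 (SE 0.48, n = 3 per group), adjusted p = 0.0117 in limma. The others were Fabp4 with a log2 difference of 2.19, Cd36 with 1.57 and Slc2a4 with 1.25. The lipogenic genes were Scd1, with log2 difference 4.25 (SE 0.99, n = 3 per group), adjusted p = 0.0117 in limma, Pcx with 1.79 and Srebf1 with 0.59. The turnover genes were Pnpla2, with log2 difference 1.95 (SE 0.56, n = 3 per group), adjusted p = 0.0269 in limma, Apoe with 1.32 and Mgll with 0.59. At an unadjusted limma p under 0.05 stood 15 members with higher and 3 with lower levels in VitC+/-, beside 22.0% and 21.8% of all genes. The 3 were Dgat2, Agpat2 and Elovl6, which did not pass (adjusted p 0.0759 to 0.113). Genes that passed no test included Adipoq, with log2 difference 0.61 (SE 0.56, n = 3 per group), adjusted p = 0.431 in limma, and Fasn, with log2 difference 0.70 (SE 0.35, n = 3 per group), adjusted p = 0.153 in limma. The median log2 difference was 0.99 over identity genes, 0.64 over lipogenic genes and 0.47 over turnover genes, against 0.01 over all genes. Of the members that passed the filter through VitC+/-, the log2 difference was 3.36 for Plin4, 4.07 for Cidec, 3.14 for Adig, 2.70 for Plin1 and 2.80 for Retn.

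How many of these 11 calls stood depended on single libraries. Leaving out WT replicate 3 lost 8 (limma adjusted p 0.0518 to 0.109), and only Scd1, Lpl and Cfd stood. Without WT replicate 2, 6 were lost (Cfd, Fabp4, Mgll, Pcx, Slc2a4 and Srebf1), without WT replicate 1, 5 (Mgll, Pcx, Pnpla2, Slc2a4 and Srebf1), and without VitC+/- replicate 1, 3 (Mgll, Slc2a4 and Srebf1). Without VitC+/- replicate 3, 0 were lost. Scd1 and Lpl passed in each of these fits and without VitC+/- replicate 2. Without VitC+/- replicate 2, 7 of the 11 passed, while Apoe, Mgll, Slc2a4 and Srebf1 did not (limma adjusted p 0.0612 to 0.120). Scd1 was then higher than in WT by 2.92 (SE 0.55, adjusted p = 0.00605) and Cfd by 2.95 (SE 0.77, adjusted p = 0.0229) in limma, and 3 enzymes of triglyceride assembly were lower. Dgat1 was lower by 1.12 on the log2 scale (limma adjusted p = 0.0151), Dgat2 by 1.12 (0.0456) and Agpat2 by 1.30 (0.0327). None of these 3 passed with all libraries, and Dgat1 was at its highest, 126, in the library left out. That library was chosen with its values known, so these 3 calls are a description. Other assembly genes were not lower, with differences of 0.05 for Acsl1 and 0.44 for Gpd1. Without that library 14.3% of all genes were higher and 14.6% lower, and the medians were 0.68, 0.46 and 0.05 over identity, lipogenic and turnover genes.

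WT and VitC+ were compared to see whether the knockout with VitC in the water differed from wild type. No member passed in limma, nor did any of the 12586 genes (0% higher and 0% lower). At an unadjusted limma p under 0.05 stood 7 of the 29 members, which were Pparg, Lpl, Me1, Insig1 and Mgll with lower and Dgat2 and Agpat2 with higher levels in WT, beside 12.4% and 9.65% of all genes. The largest of these differences was that of Lpl, with log2 difference -1.08 (SE 0.48, n = 3 per group), adjusted p = 0.225 in limma. Identity genes had a median log2 difference of -0.70 in WT, lipogenic genes of -0.10 and turnover genes of 0.45, against 0.04 over all genes. For identity genes, 8 of 10 had a lower mean log2 level in WT than in VitC+.

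Markers of other cells moved as well. Neutrophil markers, all 12 of which were detected, summed to scaled RPKM of 53641 to 75848 in WT, 30117 to 47690.4 in VitC+ and 7305 to 24529.7 in VitC+/-, so that the groups did not overlap. Osteoclast markers summed to 938.5 to 1019 in WT, 2012 to 2795 in VitC+ and 3134 to 6696.5 in VitC+/-. Markers of endothelium, whose cells also express Fabp4 and Cd36, summed to 145 to 191 in WT, 217 to 335 in VitC+ and 274.5 to 299.5 in VitC+/-. The part of these shifts in the differences of the members was not tested. In VitC+/- replicate 2, markers of marrow stroma that forms fat cells summed to 1086, above the 526.5 to 967 of the other libraries, and endothelial markers to 274.5, the lowest of VitC+/-. The stroma sum does not follow most of its genes. It was 723 to 967 in WT and 646 to 756 in VitC+, although 14 of the 16 genes had a lower mean log2 level in WT. Lepr was at 10.95 in VitC+ replicate 1 and 10.9 in VitC+/- replicate 2, and Cxcl12 at 185 and 251. Osteoblast markers summed to 3022 in that library against 6597 and 8720.2 in the other VitC+/- libraries, osteoclast markers to 3134 against 5514 and 6696.5, and neutrophil markers to 24529.7 against 17629 and 7305. Their part in its member values was not tested. Skeletal muscle markers summed to 40.6 there against 20.1 to 1803 in the other libraries, with Acta1 at 1.08, so the library that was highest in most members was low in muscle markers. Ucp1, which marks brown fat, was at 0.0185 in that library, the hepatocyte marker Alb at 0.0447 and the keratinocyte marker Krt14 at 0. These single genes do not stand for their lists. By group, keratinocyte markers summed to 23.2 to 69.7 in VitC+/-, 27.1 to 49.0 in WT and 26.4 to 43.85 in VitC+. Brown fat markers summed to 4.82 to 42.6, 9.46 to 24.1 and 7.84 to 43.8 in this order, and hepatocyte markers to 1.28 to 5.49, 1.445 to 8.87 and 2.47 to 24.2. Cidea, a droplet gene of brown and white fat cells, was at 5.60 against at most 0.264.

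Genes with a large ratio of VitC+/- replicate 2 to the next library were also listed. The members were chosen with this library's values known, so counts of members among these genes are a description and test nothing. Of 5367 genes with an RPKM of at least 10 there, 29 were members. In all, 23 of the 5367 were at least 4 times the highest of the other 8 libraries, and 13 of these were members, including 6 of the 10 largest ratios. The other 10 were as follows. Apoc1, an apolipoprotein, had an RPKM of 46.9 against 3.12 in the next library, and Mrap, an accessory protein of the ACTH receptor also made by fat cells, 63.9 against 5.19. Lpin1, the phosphatase before Dgat in triglyceride assembly, had 27.9 against 3.58, and Slc27a1, a fatty acid transporter, 76.1 against 16.4. Irs2, an adaptor of insulin signalling, had 12.1 against 3.02. Outside lipid handling, the iron carrier Trf had 274 against 59.1, the factors Nr4a3 and Irf4 15.7 against 1.47 and 24.1 against 3.48, the folate enzyme Aldh1l1 10.1 against 0.931 and the serpin Serpina3c 13.2 against 2.28.

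Related pathways were counted from other lists. Counts are again over genes that reached RPKM 1 in 3 or more WT and VitC+ libraries, and read beside the 5.93% higher and 7.52% lower of all genes against VitC+ and the 15.3% and 15.9% against WT. Of 21 genes of cholesterol synthesis, 1 was higher and 0 lower in VitC+/- against VitC+ (Hsd17b7, log2 difference 0.76, limma adjusted p = 0.0397), and 0 were higher and 4 lower against WT. Among them were Fdps (log2 difference -1.18), Dhcr7 (-0.69) and Mvd (-0.59), which act along the pathway from mevalonate to cholesterol. Of 14 genes of fatty acid oxidation, 0 passed against VitC+ in limma (6 at an unadjusted p under 0.05, as were 31.3% of all genes), and 4 were higher and 0 lower against WT. Among them, Pdk4, which spares glucose when fatty acids are burned, had a log2 difference of 2.34, Angptl4, an inhibitor of Lpl, 1.95 and Acadvl 0.37. Among 19 other genes known from fat cells, 0 were higher and 2 lower against VitC+, and 5 were higher and 2 lower against WT. G0s2, an inhibitor of Pnpla2, was lower in both, with log2 differences of -1.30 and -1.98. It was picked after its values were seen. All 12 neutrophil markers also had lower mean log2 levels in both comparisons. The part of other cells in the level of G0s2, and its relation to the level of Pnpla2, were not tested.

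In the Tet femurs, all 40 members reached a normalized count of 10 in 3 libraries. Against Ctrl, no member passed in limma in Tet1 cKO, in Tet2 cKO or in Tet1/2 cKO, where 0.0119%, 0.0119% and 0% of 16780 genes did, and none passed in edgeR or DESeq2 on recovered reads, which left out Tet1 cKO replicate 3. The 3 comparisons share the Ctrl libraries. At an unadjusted limma p under 0.05 stood 0 members in Tet1 cKO, 2 in Tet2 cKO and 4 in Tet1/2 cKO, beside 2.28%, 2.19% and 5.05% of all genes, and 1 of the 2 in Tet2 cKO was Adrb3, which passed the filter through that group alone. In Tet1/2 cKO, Adipoq gave log2 difference -0.88 (SE 0.38, n = 3 per group), adjusted p = 0.723, Cfd gave log2 difference -2.48 (SE 1.05, n = 3 per group), adjusted p = 0.723, and Srebf1 gave log2 difference -0.43 (SE 0.17, n = 3 per group), adjusted p = 0.723, all in limma. Dgat1 had a higher mean, with log2 difference 0.85 (SE 0.31, n = 3 per group), adjusted p = 0.723 in limma. Identity, lipogenic and turnover genes had median log2 differences of -0.59, -0.22 and -0.23 in Tet1 cKO and of -0.81, -0.43 and -0.06 in Tet1/2 cKO, against -0.01 over all genes in both.

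As in the VitC femurs, 1 library held the highest values. Tet2 cKO replicate 1 was the highest library for 28 of the 40 members, and for 22.8% of all genes. With 1 added to each value, 6 members were at least 4 times higher in it than in every other library (0.197% of all genes), which were Plin1, Lep, Retn, Cfd, Adrb3 and Pck1. These are 5 identity genes and 1 turnover gene, and no lipogenic gene was among them. Over the 18 identity genes the median log2 ratio of that library to the median of the other 11 was 2.69, against 0.96 over lipogenic and 0.99 over turnover genes. The lowest library was Tet1/2 cKO replicate 1, with -2.17 over identity genes and -0.49 over lipogenic genes.

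Values are normalized counts, which compare libraries and not genes. Adipoq was at 2582, 1587 and 2305 in Ctrl, 669, 1657 and 1941 in Tet1 cKO, 3124, 1768 and 2592 in Tet2 cKO and 894, 1343 and 1247 in Tet1/2 cKO. Its Tet1/2 cKO libraries lay below all Ctrl libraries, and the other groups overlapped with Ctrl. Cfd was at 448, 1483 and 786 in Ctrl, 480.3, 287 and 454 in Tet1 cKO, 6049, 895 and 843.5 in Tet2 cKO and 21.4, 393 and 339.7 in Tet1/2 cKO, with Tet2 cKO replicate 1 far above and Tet1/2 cKO replicate 1 far below the rest. Retn was at 19.0, 84.0 and 31.7 in Ctrl, 30.02, 41.3 and 9.04 in Tet1 cKO, 572, 15.7 and 35.7 in Tet2 cKO and 26.7, 61.6 and 40.3 in Tet1/2 cKO, and only Tet2 cKO replicate 1 stood apart. Lep was at 8.46, 19.0 and 23.2 in Ctrl, 5.46, 0 and 0 in Tet1 cKO, 198, 0 and 7.33 in Tet2 cKO and 0, 18.3 and 17.3 in Tet1/2 cKO, so that it was at 0 in 4 libraries and high in 1 library. Plin1 was at 48.6, 96.15 and 53.4 in Ctrl, 12.3, 25.55 and 59.2 in Tet1 cKO, 721, 52.9 and 85.2 in Tet2 cKO and 10.7, 29.7 and 35.5 in Tet1/2 cKO, again with a single high library. Adrb3 was at 4.23, 6.77 and 0 in Ctrl, 0, 1.965 and 4.02 in Tet1 cKO, 139.7, 18.6 and 22.0 in Tet2 cKO and 0, 3.04 and 1.92 in Tet1/2 cKO. All Tet2 cKO values of Adrb3 were above all Ctrl values, but it reached a count of 10 in no library outside Tet2 cKO, so its difference is a description. Pck1 was at 9.52, 307 and 37.1 in Ctrl, 43.7, 29.5 and 60.25 in Tet1 cKO, 1274.5, 47.0 and 16.5 in Tet2 cKO and 35.1, 62.4 and 53.7 in Tet1/2 cKO, where Ctrl replicate 2 was the next highest.

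Further members had these values. Fabp4 was at 6237.5, 7549.9 and 6744 in Ctrl, 6953, 5173 and 4387 in Tet1 cKO, 17120.0, 9465 and 4611 in Tet2 cKO and 2524, 5825 and 5845 in Tet1/2 cKO, so that Tet2 cKO replicate 1 was 1.81 times the next library. Scd1 was at 5511, 6820.0 and 5021.5 in Ctrl, 4987, 3551 and 5129 in Tet1 cKO, 15063, 3800.1 and 5695 in Tet2 cKO and 2174, 5208 and 3403 in Tet1/2 cKO, and the same library was 2.21 times the next. Car3 was at 5332, 8851 and 11304 in Ctrl, 14661, 4302.5 and 12944 in Tet1 cKO, 24175, 7867 and 8046 in Tet2 cKO and 2006, 5316 and 10868.5 in Tet1/2 cKO, with all groups overlapping. Thrsp was at 241, 520.0 and 177 in Ctrl, 363, 224 and 326 in Tet1 cKO, 1058, 434 and 302 in Tet2 cKO and 73.3, 273 and 321 in Tet1/2 cKO, and its lowest value was that of Tet1/2 cKO replicate 1. Pnpla2 was at 2125, 2385 and 1892 in Ctrl, 1726, 1737 and 1241 in Tet1 cKO, 4785, 3889 and 1850.0 in Tet2 cKO and 1812, 1734 and 1979.5 in Tet1/2 cKO, where Tet2 cKO replicates 1 and 2 were above the rest. Pparg was at 881, 552.5 and 619.5 in Ctrl, 428, 902 and 578 in Tet1 cKO, 731, 444 and 793 in Tet2 cKO and 346, 590.4 and 560.4 in Tet1/2 cKO, and no library stood apart. Dgat1 was at 3739, 6480.1 and 3978 in Ctrl, 4088, 5633 and 6659 in Tet1 cKO, 3273, 5912 and 6033 in Tet2 cKO and 10957, 7712 and 6717 in Tet1/2 cKO, and all Tet1/2 cKO libraries were above all Ctrl libraries. Apoe was at 13171, 10388 and 11420.4 in Ctrl, 6201, 15168 and 14519 in Tet1 cKO, 12843, 8199 and 16472 in Tet2 cKO and 5981, 8615 and 8537 in Tet1/2 cKO, and its Tet1/2 cKO libraries were below all Ctrl libraries.

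**Figure D4:**
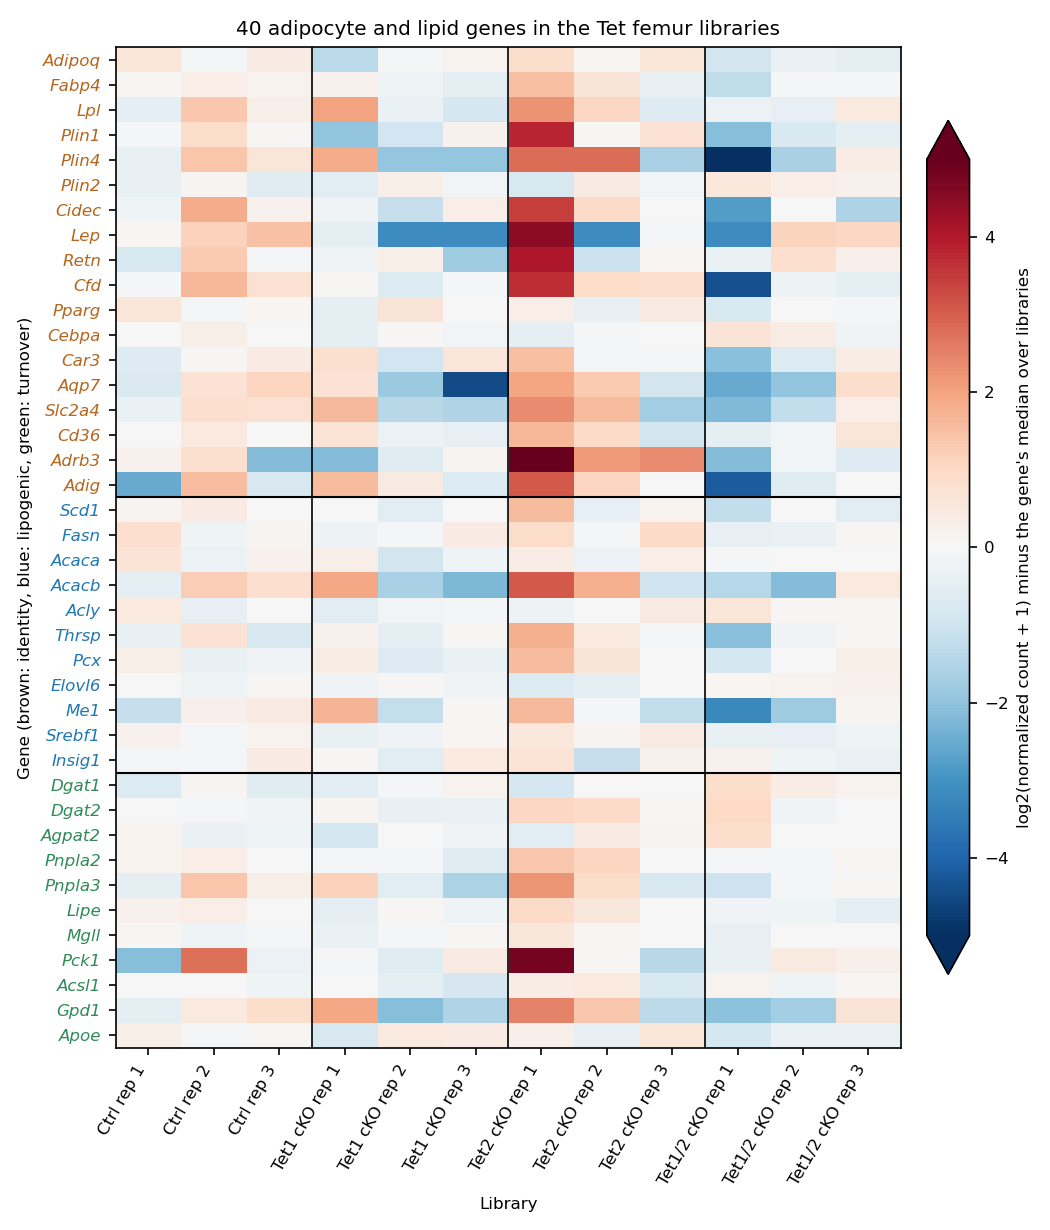
Each row is 1 of the 40 members and each column 1 of the 12 Tet femur libraries (3 for each genotype). Colour gives log2(normalized count + 1) minus the gene's median over the libraries. The column of Tet2 cKO replicate 1 is the highest for 28 rows, and that of Tet1/2 cKO replicate 1 is low over most identity genes.

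Skeletal muscle markers were also highest in Tet2 cKO replicate 1. The 18 markers were all detected there and summed to 2122418.5 normalized counts, and to 6227 to 1580937 in the other 11 libraries. By group they ranged from 165591 to 698391 in Ctrl, 12763 to 1580937 in Tet1 cKO, 6227 to 2122418.5 in Tet2 cKO and 6376 to 606302 in Tet1/2 cKO. The 4 libraries highest in muscle markers were the 4 highest in Gpd1. At least 3 of these 4 were among the 4 highest of 15 of the 40 members (8 identity, 4 lipogenic and 3 turnover genes). The share of all genes for which this holds was not counted, so the count is a description. The 15 are Slc2a4, Car3, Lpl, Cd36, Acacb, Plin4, Fabp4, Adig, Aqp7, Thrsp, Pcx, Me1, Dgat2, Pnpla3 and Gpd1. Muscle makes some of these too, such as Slc2a4 and Car3. Tet2 cKO replicate 1 was highest both in muscle markers and in 28 of the 40 members, which favours such an overlap. Endothelial markers summed to 50189 in Tet2 cKO replicate 1 against 10898 to 27052 elsewhere, neutrophil markers to 402149 against 545710.0 to 2704532, and Cidea was at 129 against at most 13.5. Brown fat markers, 9 of 10 of them detected, summed to 11266.6 against 643.8 to 8115.7 elsewhere, and hepatocyte markers, 2 of 12 detected, to 3588.7 against 9.16 to 469.9. Ucp1 and Alb were at 0 in that library. The part of muscle or other tissue in the members' values was not tested. Without Tet2 cKO replicate 1, Tet2 cKO against Ctrl gave medians of -0.14 over 17 identity genes, -0.11 over lipogenic genes and 0.10 over turnover genes, where all libraries gave 0.45, 0.26 and 0.33. No member passed in limma with or without it (0.00602% of genes higher and 0.00602% lower without it).

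Peak lists were compared near the transcription start sites of the members. Each list pools the samples of a group, so that there are no replicates, no test and no error, and the covered length of peaks whose midpoint is within 30 kb of the start was compared after adding 1000 bp. For 5hmC in femurs of VitC+/- against VitC+, 15 members had a longer and 24 a shorter covered length, as did 40.4% and 58.2% of 20558 protein-coding genes. The median log2 ratio was -0.09, against -0.08 over all genes, and the lists cover 175.0 and 175.5 Mb. By class it was 0.01 for identity, -0.41 for lipogenic (3 longer and 8 shorter of 11) and -0.08 for turnover genes. Near Scd1, 3199 bp were covered in VitC+/- and 4853 bp in VitC+, and near Cidec 1324 and 1638 bp.

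Within 1000 bp of a start, few members had a 5hmC peak in both VitC lists. In the gene body of Fabp4, the peak at chr3:10207786-10208312 in VitC+ had a fold enrichment over the local background of 6.32 and the one at chr3:10207899-10208225 in VitC+/- of 2.86. Upstream of Mgll, the peak at chr6:88723372-88723986 in VitC+ had 7.37 and the one at chr6:88723495-88723983 in VitC+/- had 5.42. Upstream of Me1 the fold was 5.58 in VitC+ and 4.73 in VitC+/-, and upstream of Plin2 it was 6.01 and 5.09. Upstream of Pnpla3 it was 3.79 and 4.85, and upstream of Agpat2 3.59 and 3.80, so that these were higher in VitC+/-. All positions are in mm10 (GRCm38).

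In femurs of Tet1/2 cKO against Ctrl, 0 members had a longer and 40 a shorter 5hmC covered length, as did 1.94% and 83.9% of all genes. No member lacked a peak in both lists, whereas 2899 of the 20558 genes did and cannot differ. The median log2 ratio was -1.19 against -0.95 over all genes, and the list of Tet1/2 cKO covers 122 Mb against 272 Mb. Near Scd1, 4364 bp were covered in Tet1/2 cKO and 15084 bp in Ctrl, and near Cfd 5646 and 18925 bp. In MC3T3-E1 cells with VitC against without it, 34 members had a longer and 6 a shorter 5hmC covered length (59.4% and 40.2% of all genes), with a median of 0.89 against 0.42, and the lists cover 195 and 144 Mb. All 11 lipogenic genes had a longer covered length, with a median of 1.12, against 0.73 for identity and 0.72 for turnover genes. Near Pnpla2, 4400 bp were covered with VitC and 0 bp without it. Scd1 had a peak of fold 10.3 within 1000 bp of its start in cells with VitC, at chr19:44406482-44407326.

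The repressive marks were measured in MC3T3-E1 cells only. For H3K27me3, 2 members had a longer and 31 a shorter covered length with VitC, as did 9.49% and 53.4% of all genes. Near 7 members and 7627 of the 20558 genes neither list had a peak. Such genes cannot differ, so the shares and the median over all genes are not directly comparable with those of the members. The median log2 ratio was -0.61 against -0.14 over all genes, and the lists cover 145 Mb with and 233 Mb without VitC. Near Cfd, 4635 bp were covered with VitC and 16608 bp without it, and near Scd1 18423 and 39256 bp. Near Fasn and Fabp4 there was no H3K27me3 peak in either list. Counted as numbers of peaks the median log2 ratio for H3K27me3 was 0. For H3K9me3, 4 members had a longer and 18 a shorter covered length (13.6% and 41.9% of all genes). The median was 0 as over all genes, and the lists cover 43.1 and 66.1 Mb. Here 18 members and 9147 of the 20558 genes had no peak in either list.

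**Figure D5:**
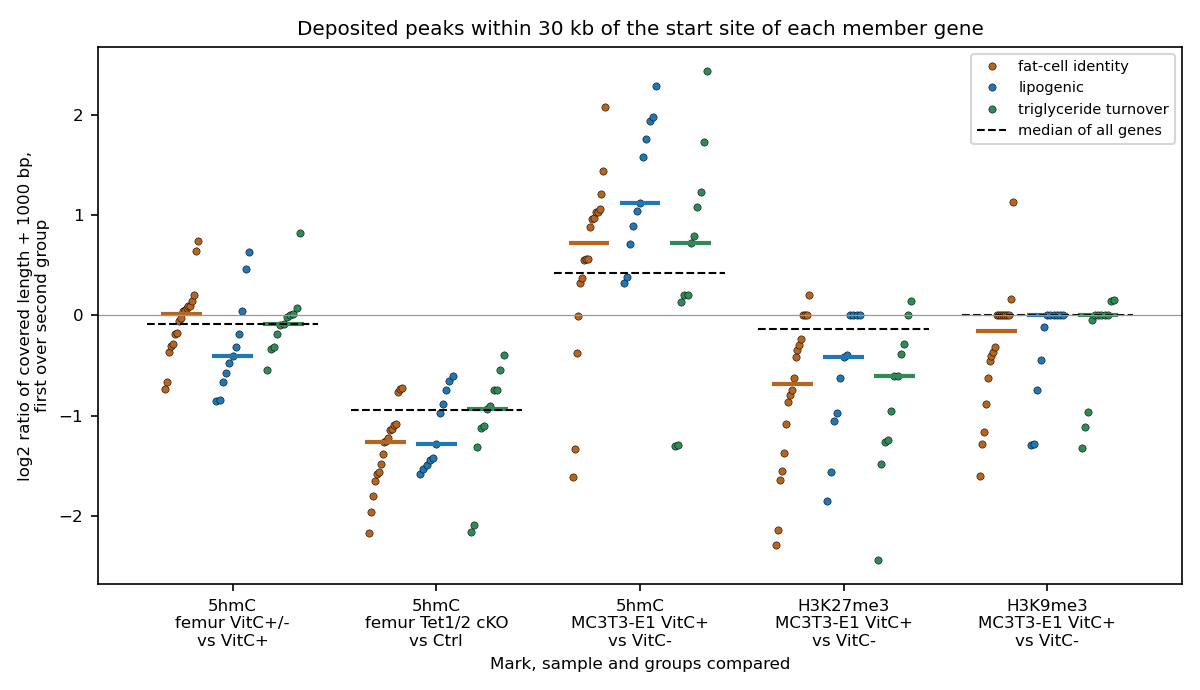
Log2 ratio of the covered length of peaks within 30 kb of the start site (1000 bp added) for each of the 40 members in 5 pairs of pooled peak lists, where points are genes, coloured bars the medians of identity, lipogenic and turnover genes and the dashed line the median of all genes. The median of all members is -0.09 in the femurs of VitC+/- against VitC+, where that of all genes is -0.08 and that of lipogenic genes -0.41, and every member lies below 0 in Tet1/2 cKO against Ctrl.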

How the data were processed

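RNA-seq of mouse femurs was taken from 9 VitC and 12 Tet libraries. The authors deposited RPKM values for the VitC femurs, after alignment to mm10 with STAR, and the tool that computed RPKM is not given in the sources used here (the methods name cufflinks for FPKM). For the Tet femurs the authors deposited a count signal per gene, which featureCounts counted and DESeq2 divided by size factors. The peak lists, 1 per group and pooled over its samples, hold as deposited by the authors a pileup signal, a fold enrichment over the local background and −log10 q values, made with BWA and MACS2, for which the methods give an FDR of 0.05, although the 4 histone lists hold −log10 q values down to 1.01, beyond that limit. The submitters' processing notes name FastQC 0.72, Trim Galore 0.4.3.1, STAR 2.6.0b-1, featureCounts 1.6.3, DESeq2 2.11.40.2, BWA 0.7.15.1 and MACS2 2.1.1.20160309.6.

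Each library's RPKM was scaled by the median of its ratios to the geometric mean, and log2(value + 0.5) was tested for genes that reached RPKM 1 in 3 or more libraries. In the Tet femurs, log2(value + 1) was tested for genes that reached a normalized count of 10 in 3 or more. All groups of an experiment entered a fit in limma 3.58.1 (R 4.3.3) with p-values adjusted after Benjamini-Hochberg and called under 0.05. The fit was tested on simulated data. Low RPKM values were whole reads in 87.2 to 90.4% of cases and Tet values in 100% (tolerance 0.1), so edgeR 4.0.16 and DESeq2 1.42.0 were run on recovered Tet reads only. Other steps used Python 3.11.15. The methods describe femur RNA-seq in biological triplicates, and no label says which animal a library came from.

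Same-numbered libraries correlated between -0.19 and 0.46 in the VitC femurs and between -0.57 and 0.53 in the Tet femurs, after group means were removed. Libraries of different number were not compared in this way, so these values do not settle whether the numbers pair libraries. The fits treated libraries as unpaired unless stated. The members and lists were chosen with earlier results of these data known. Counts and medians of the VitC comparisons are over the 29 tested members that reached the minimum in 3 or more WT and VitC+ libraries, a restriction made after the data were seen. Values per library are given for members past the threshold in any comparison, for members at least 4 times higher in 1 library than in all others, and for the first member of each role, the other members by their range. Outside the members, the rule named Gulo, Tet1, Tet2 and the 10 genes of largest ratio in VitC+/- replicate 2, and the genes named from the other lists and the peaks described were chosen after their values were seen. Alternatives were other filters, pseudocounts and scalings, the groups compared alone, array weights, a replicate block, leaving out each library, and other windows and q limits for peaks. Single genes of the other lists that are withheld are not reported here.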

Additional observations from a re-analysis of the deposited data

How the results depend on the processing

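Counts here are over all 35 tested members, including the 6 that passed the filter through VitC+/-, with those over the other 29 in brackets and the share of all genes called beside them. With no filter on low values, 0 [0] members passed in VitC+/- against VitC+ (7.73% of all genes) and 7 [5] against WT (19.7%). With only the groups compared in the fit, 1 [1, Acaca] and 7 [5] passed (16.6% and 21.9%). With array weights, an estimation that did not converge, 15 [13] members passed against VitC+ (9 higher, 6 lower, 61.0% of all genes) and 6 [5] against WT (4 higher, 2 lower, 27.4%), and the median log2 differences against VitC+ were 0.15 for identity and 0.26 for lipogenic genes. Leaving out 1 library gave 0 to 5 [0 to 4] members against VitC+ and 5 to 16 [3 to 12] against WT, and a median of 0.29 to 0.75 for lipogenic genes against VitC+. Set against the highest of the other 8 libraries rather than their median, lipogenic genes in VitC+/- replicate 2 gave a median log2 ratio of 0.21. Counted as peaks, the H3K27me3 median was 0. The cause of these changes was not tested. For single members, calls were lost in 45 of 106 values with 1 library left out and in 38 of 126 values under other settings, and no value reversed. These totals include calls of Plin1, Plin4, Cidec, Retn and Adig, which passed the filter through VitC+/-, so they are a description. Of the 11 calls against WT among the other 29 members, 9 were lost in at least 1 fit with a library left out.

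With the replicate number as a block, 4 [3] members passed in VitC+/- against VitC+ (17.2% of all genes), 18 [13, 2 of them lower] against WT (35.5%), 2 [2] in WT against VitC+ (6.15%) and 0 in each Tet comparison. No single call among the 18 tried was lost, but these include calls of Plin1, Plin4, Cidec, Retn and Adig, which are a description. Whether the numbers pair the libraries is not settled by their correlations, and no label pairs them.

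With 3 libraries per group and 1 VitC+/- library far from the others, precision is limited for most members. The low depth of WT replicate 1 limits low values there. Peak lists have no replicates. Fold changes of members near 0, such as Plin1, Cidec and Adig in WT, depend on the value added before taking logs.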
